A study of Mus musculus with 16 samples.

Results

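The comparison described here is that of blood neutrophils from mice labelled aD KO (αD KO), 12 hours after cecal ligation and puncture (CLP) against no treatment, the baseline (0h). Its members are defined by the labels alone (genotype aD KO, tissue Blood), which gives 4 of the 16 samples of the series and 6 of its 24 count files. By the label, these mice lack CD11d (αD), the α subunit that pairs with CD18 (β2) in the integrin αDβ2, and the mice came from a supplier's knockout line. Male mice aged 8 to 12 weeks had the surgery. Neutrophils were sorted from blood as Ly6G+/CD11b+/CD45.2+ cells, full-length cDNA was amplified from their RNA, and reads within exons were counted per gene. At 0h and at 12 hours there were 3 count files each, of which 2 belong to sample 1 (called libraries 1a and 1b here) and 1 to sample 2 (library 2). The WT mice, used below for a single comparison, had the same tissue, times and sort. No mice with sham surgery are among the labels, so effects of surgery, anesthesia and infection cannot be told apart.

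Neutrophils are short-lived granulocytes that leave the bone marrow with ready-made granules. They sense bacterial products through Toll-like receptors and CD14, chemoattractants through G protein-coupled receptors, and adhere to vessels through selectins and β2 integrins. In sepsis the marrow releases large numbers of them, including younger cells that still hold transcripts of granule proteins. CLP spills gut bacteria into the peritoneum and is a common model of polymicrobial sepsis.

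Total counts of the 6 libraries were 8883957 to 23239590, and 49315 genes were listed. Libraries 1a and 1b of a time point differed far beyond sampling noise, by a chi-square of 66.1 for each degree of freedom at 0h and 229.6 at 12 hours, so each file was taken as a library, with n = 3 per time point. The labels do not give the mouse behind each library, and p-values then measure the spread between these libraries, which may be technical in part. Values are given as CPM, the counts of a gene relative to the total of its library, after TMM scaling, which corrects for differences in library composition, and are listed in the order 1a, 1b and 2. Expression of Itgad, the targeted gene (ENSMUSG00000070369, chr7:128154376-128223816 on GRCm38), was 96.02, 82.96 and 51.6 CPM at 0h and 14.1, 13.1 and 18.9 CPM at 12 hours in the libraries labelled αD KO. On the scale of all 12 blood libraries, Itgad was 2.97, 2.36 and 3.58 CPM at 0h and 0.0535, 0.441 and 0.13 CPM at 12 hours in the libraries labelled WT. On the same scale those labelled αD KO had 109.3, 57.95 and 49.8 CPM at 0h and 14 to 20.3 CPM at 12 hours. The targeted gene was thus higher in the libraries labelled αD KO at both times, which goes against the label, and the cause was not tested. Genotypes are named below as the labels give them.

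Before the response itself, the markers of other blood cells were summed in each library. Neutrophil markers summed to 64110, 48960 and 62110 CPM at 0h and to 128700, 164900 and 137100 CPM at 12 hours, and none of the 14 markers was at 0 in any library. The 0h library 2 held the most RNA of several other blood cells. Its T and NK cell markers summed to 989.8 CPM, against 81.7 and 65.8 CPM in the 0h libraries 1a and 1b and 26.0 to 31.7 CPM at 12 hours. Single genes followed this pattern: Nkg7, a granule protein of cytotoxic lymphocytes, was 4.27, 0 and 117 CPM at 0h, and Cd79a, a chain of the B cell receptor complex, was 9.04, 8.305 and 142 CPM. Monocyte and macrophage markers summed to 4202 CPM in that library and to 1119 to 2066 CPM in the other 5, and dendritic cell markers to 2096 CPM against 357.8 to 1088 CPM. Platelet markers summed to 1537, 229.4 and 1940 CPM at 0h and to 3923, 717.8 and 2343 CPM at 12 hours, a sum that includes Thbs1, which rose. The platelet chemokine gene Pf4 was 149.7, 9.52 and 162 CPM at 0h and 9.83, 2.25 and 11.1 CPM at 12 hours, so the 0h library 1a was nearly as high as library 2. Eosinophil, basophil and mast cell markers summed to 69.4, 88.5 and 93.9 CPM at 0h and to 20.1, 19.7 and 19.7 CPM at 12 hours. Erythroid markers summed to 1930, 8998 and 9609 CPM at 0h and 55.5, 6292 and 501.2 CPM at 12 hours. Libraries 1b stood apart in another way. Transcripts of Ngp, a secondary granule protein of young neutrophils, were 8739, 92.5 and 9243 CPM at 0h, and those of Cebpb, a transcription factor of emergency granulopoiesis, were 24.5, 4750 and 26.7 CPM at 12 hours. In bulk RNA, fewer cells of a type and less RNA per cell cannot be told apart. The part of these markers in the results below was not tested, and counts without the 0h library 2 are given beside them.

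**Figure D1:**
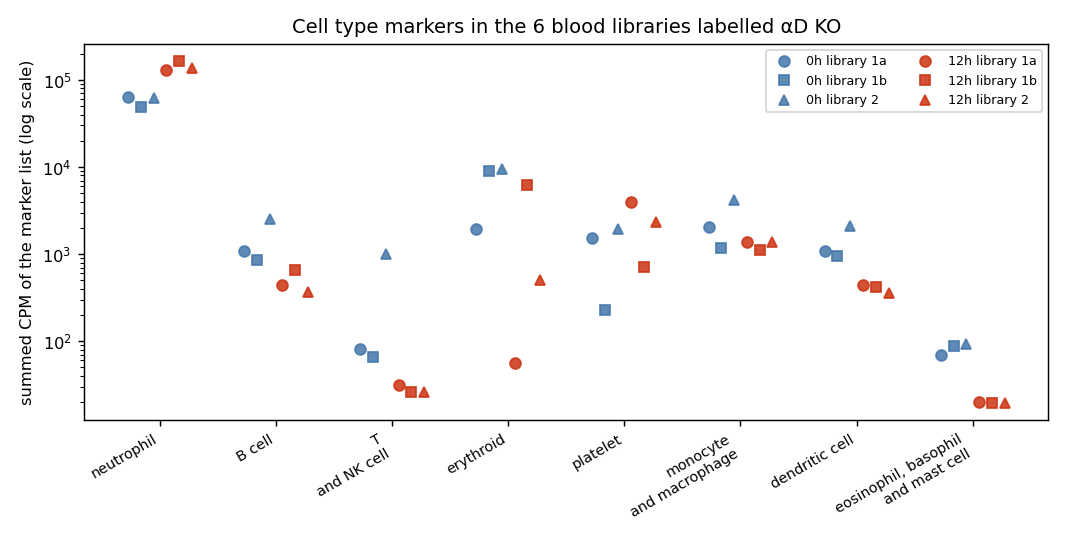
Summed CPM (log scale) of the markers of 8 cell types in the 6 blood libraries labelled αD KO, 0h in blue and 12 hours in red, with circles for library 1a, squares for 1b and triangles for 2. The 0h library 2 is highest for the B cell, T and NK cell, monocyte and dendritic cell markers, with 989.8 CPM of T and NK cell markers against 81.7 CPM or less in the other 5 libraries.

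Blood neutrophils labelled αD KO changed broadly after CLP. The acute-phase genes Saa3, Orm1 and Lcn2, the NF-κB inhibitor genes Nfkbia and Tnfaip3 and the endotoxin co-receptor Cd14 rose, while the phosphatase gene Dusp6, the G-CSF receptor Csf3r, the integrin genes Itgal and Itga4 and the inflammasome sensor Nlrp3 fell. Of 14156 genes tested with edgeR's quasi-likelihood test, 531 (3.75%) were called higher and 707 (4.99%) lower with a p under 0.05 after Benjamini-Hochberg adjustment and a log2 fold change beyond 1 in either direction. The median log2 fold change of all genes tested was -0.14. The 3 libraries of 12 hours lay above all 3 of 0h for 14.8% of the genes and below them for 19%, and 1234 of the 1238 DEGs were among these. When the 0h library 2 was left out, 279 genes (1.71%) were called higher and 292 (1.79%) lower, and 489 of these 571 DEGs were among the 1238. None of the 1238 DEGs changed sign in any of the 6 fits that left out 1 library. Where the time points do not overlap, as for 1234 of these DEGs, that outcome was all but fixed in advance and measures no stability. In all 6 of those fits, 71 DEGs were called, of which 20 were higher and 51 lower. Of 206 named DEGs, 126 lost their call without the 0h library 2. Without the 0h library 1a, 184 did, and without the 12-hour library 2, 164 did. A call kept without the 0h library 2, as given below, can thus be lost in another fit. The part of other cells in the lost calls was not tested.

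Among DEGs whose mean CPM at the lower time point was above that of 3 counts over its libraries (0.0491 CPM at 0h and 0.0715 CPM at 12 hours), the largest rise was that of Lipg, which codes for endothelial lipase, an enzyme that hydrolyses phospholipids of lipoproteins. It was 0.754, 1.4 and 0.868 CPM at 0h and 191, 974 and 539 CPM at 12 hours (log2 fold change 9.18 ± 0.77, SE; adjusted p = 0.0012, edgeR). Prnp, the gene of the cellular prion protein, had 1.47, 2.43 and 3.32 CPM at 0h and 304, 179.5 and 277 CPM at 12 hours (log2 fold change 6.71 ± 0.46, adjusted p = 0.00105). The 12-hour libraries were alike for Prnp and spread widely for Lipg, with no overlap with 0h in either. Mt1, which codes for the zinc-binding metallothionein 1, was 1.21, 0.56 and 4.001 CPM at 0h and 651, 21.4 and 325 CPM at 12 hours (log2 fold change 7.37 ± 1.32, adjusted p = 0.0173). Prok2, the gene of the chemokine-like prokineticin 2, had 1.63, 0.747 and 2.42 CPM at 0h and 56.4, 677 and 71.1 CPM at 12 hours (log2 fold change 7.34, adjusted p = 0.0109). In both genes the 12-hour library 1b stood apart, as the lowest for Mt1 and the highest for Prok2. Ggt1, which breaks down extracellular glutathione, and Edn1, the gene of the vasoconstrictor endothelin 1, were the remaining members of the 10 largest rises outside the groups below, with log2 fold changes of 6.53 and 6.4 (adjusted p = 0.00653 and 0.0103).

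Cd101, which codes for an immunoglobulin-like surface protein used as a marker of mature neutrophils, had the largest fall by the same rule. Genes below that limit, such as the immunoglobulin segment Ighv1-52 with 447 counts at 0h and 1 at 12 hours, had larger fitted falls. Expression of Cd101 was 587, 625 and 421 CPM at 0h and 2.57, 3.37 and 2.67 CPM at 12 hours (log2 fold change -7.57 ± 0.37, adjusted p = 0.00026), and no library of 12 hours came near those of 0h. Prr5l, a partner of the mTORC2 kinase complex, was 397, 276 and 230.3 CPM at 0h and 4.43, 4.12 and 2.74 CPM at 12 hours (log2 fold change -6.32, adjusted p = 0.000973). Abcg3, a transporter gene, and the pseudogene Gad1-ps fell by 7.01 and 6.56 on the log2 scale (adjusted p = 0.00265 and 0.0012). The reads of a pseudogene can come in part from its parent gene. These 4 falls were also called without the 0h library 2, with adjusted p = 0.00162, 0.00297, 0.00929 and 0.00304. The other 6 of the 10 largest falls by this rule, which also asks that the time points do not overlap, were Trbc1, Fcna, Fcer2a, Trim10, Siglech and Cd209a, which were not called without that library (adjusted p = 0.0669 to 0.162). Trbc1, a constant segment of the T cell receptor, had 0.586, 1.4 and 32.99 CPM at 0h, and Siglech, a marker of plasmacytoid dendritic cells, had 3.48, 2.8 and 41.7 CPM.

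Among the DEGs with the highest expression, S100a8 and S100a9, which code for the 2 subunits of calprotectin, rose to 46690, 84460 and 53570 CPM and 38810, 42140 and 43790 CPM from 18440, 13990 and 21660 CPM and 17750, 15060 and 19280 CPM, respectively (log2 fold changes 1.77 and 1.26, adjusted p = 0.032 and 0.0449). Anxa1, the gene of the pro-resolving protein annexin A1, was 2717, 1043 and 2571 CPM at 0h and 12120, 4432 and 13470 CPM at 12 hours (log2 fold change 2.25, adjusted p = 0.041). These 3 rises were not called without the 0h library 2 (adjusted p = 0.101, 0.148 and 0.105). At the other end, Ccl6, a CC chemokine of myeloid cells, was 3736, 3964 and 4035 CPM at 0h and 271, 365 and 307 CPM at 12 hours (log2 fold change -3.64 ± 0.30, adjusted p = 0.0012). Its libraries differed little within each time point. Fgl2, which codes for a fibrinogen-like protein, fell by 3.71 on the log2 scale from 2136, 2177 and 1734 CPM to 182, 132 and 147 CPM (adjusted p = 0.0012).

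**Figure D2:**
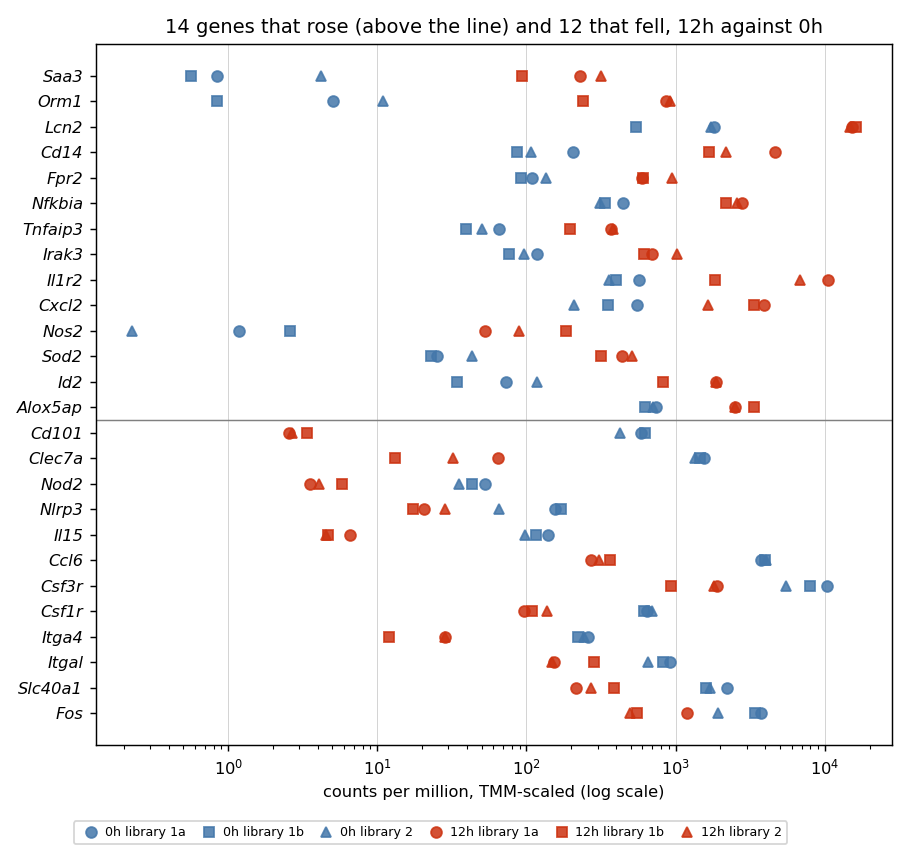
Expression (CPM, log scale) of 14 genes that rose (above the line) and 12 that fell (below it) in each blood library labelled αD KO, 0h in blue and 12 hours in red, with circles for library 1a, squares for 1b and triangles for 2. No gene shown has a 12-hour library within its 0h range, and Cd101 goes from 421 CPM or more to 3.37 CPM or less.

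NF-κB, the transcription factor downstream of Toll-like and cytokine receptors, induces its own inhibitors, which limit the response. Of 27 tested genes of NF-κB subunits and feedback inhibitors, 10 rose and 2 fell, against 3.75% and 4.99% of all genes. The median log2 fold change of the list was 0.83. In the fit without the 0h library 2, 7 were called higher and none lower (edgeR), against a background of 1.71% and 1.79%. Nfkbia codes for IκBα, which holds NF-κB in the cytoplasm. It was 444, 338 and 313 CPM at 0h and 2790, 2176 and 2586 CPM at 12 hours (log2 fold change 2.79 ± 0.30, adjusted p = 0.00345). Tnfaip3 codes for A20, a ubiquitin-editing inhibitor of the pathway, and had 65.5, 39.1 and 49.97 CPM at 0h and 370.4, 197 and 378 CPM at 12 hours (log2 fold change 2.61, adjusted p = 0.00693). The inducible kinase gene Ikbke had 8.88, 2.61 and 8.45 CPM at 0h and 322, 163 and 535 CPM at 12 hours (log2 fold change 5.66 ± 0.65, adjusted p = 0.00393). Birc3, a ubiquitin ligase of the TNF receptor complex, rose by a log2 fold change of 1.71 (adjusted p = 0.0197). Tnfaip2, a TNF-induced gene, fell from 1626, 1392 and 836 CPM to 387, 485 and 246 CPM, and Tnip2, a partner of A20, from 70.1, 63.2 and 46.6 CPM to 20.6, 29.96 and 18.3 CPM (adjusted p = 0.0295 and 0.0353). The 12-hour libraries lay above the 0h range for the first 4 of these genes and below it for Tnfaip2 and Tnip2.

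The promoters of Nfkbia, Tnfaip3, Cxcl2 and Cxcl3 are shown as examples of genes that rose together and hold a sequence that NF-κB is known to prefer. Each stretch is the 250 bases before the gene's start farthest upstream in RefSeq on GRCm38.p6, 5′ to 3′ on the gene's strand, and the capitals mark matches to GGGNNTTTC on either strand, a core of the NF-κB motif. Such a match is in 3.8% of the 27025 promoters of this length, in 6.68% of the 419 of genes called higher and in 5.18% of the 502 of genes called lower. The 10 promoters looked at singly were those of these 4 genes and of Ikbke, Tnf, Sod2, Saa3, Lcn2 and Irak3, which have none in this window. The match is a description of the sequence and not a site shown to be bound.
Nfkbia (chr12:55492648-55492897, minus strand): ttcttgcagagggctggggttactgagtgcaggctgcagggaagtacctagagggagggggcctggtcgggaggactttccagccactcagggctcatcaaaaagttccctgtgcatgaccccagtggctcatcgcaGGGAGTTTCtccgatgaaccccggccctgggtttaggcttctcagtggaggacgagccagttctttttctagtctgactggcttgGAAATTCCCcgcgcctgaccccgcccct
Tnfaip3 (chr10:19015411-19015660, minus strand): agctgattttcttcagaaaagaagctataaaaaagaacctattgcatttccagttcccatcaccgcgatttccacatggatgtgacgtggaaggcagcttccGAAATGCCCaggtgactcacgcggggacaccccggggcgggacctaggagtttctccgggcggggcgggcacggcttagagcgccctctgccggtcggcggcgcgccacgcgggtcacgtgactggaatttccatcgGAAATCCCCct
Cxcl2 (chr5:90903649-90903898, plus strand): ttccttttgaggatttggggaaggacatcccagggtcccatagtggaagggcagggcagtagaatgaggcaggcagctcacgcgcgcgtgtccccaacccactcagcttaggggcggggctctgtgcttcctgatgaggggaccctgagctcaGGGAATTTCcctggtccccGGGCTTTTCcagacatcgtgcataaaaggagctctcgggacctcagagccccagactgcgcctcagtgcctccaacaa
Cxcl3 (chr5:90785851-90786100, plus strand): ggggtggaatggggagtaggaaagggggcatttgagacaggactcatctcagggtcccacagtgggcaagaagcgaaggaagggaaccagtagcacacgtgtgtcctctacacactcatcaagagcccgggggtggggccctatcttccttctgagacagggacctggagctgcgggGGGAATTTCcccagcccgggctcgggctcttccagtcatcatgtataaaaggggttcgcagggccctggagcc
The windows of Nfkbia, Tnfaip3 and Cxcl2 hold 2 matches each and that of Cxcl3 holds 1.

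Cytokines and chemokines moved in both directions. Among 14 tested chemokine ligands 2 rose and 2 fell, and among 18 cytokines 3 rose and 3 fell. For comparison, 3.75% of all genes were called higher and 4.99% lower. Cxcl2 and Cxcl3 code for ligands of CXCR2 that attract neutrophils. Cxcl2 was 549, 352 and 207 CPM at 0h and 3903, 3351 and 1663 CPM at 12 hours (log2 fold change 3.01, adjusted p = 0.0112), and Cxcl3 was 5.82, 3.45 and 2.53 CPM at 0h and 440.1, 40.5 and 92.7 CPM at 12 hours (log2 fold change 5.6, adjusted p = 0.0128). The ligand genes that fell were Ccl6, given above, and Cxcl5, which was 1.26, 1.21 and 0.944 CPM at 0h and 0, 0 and 0.0637 CPM at 12 hours. Tnf rose from 24.1, 13.3 and 11.6 CPM to 76.9, 134 and 103 CPM (log2 fold change 2.68, adjusted p = 0.00767). Il12a, a subunit of IL-12, and Csf3, the gene of G-CSF, also rose (log2 fold changes 4.96 and 4.45, adjusted p = 0.0281 and 0.0333), though Csf3 reached no more than 11.4 CPM in any library. Il15, which codes for a cytokine that sustains lymphocytes, fell from 139.5, 117 and 98.4 CPM to 6.55, 4.68 and 4.52 CPM (log2 fold change -4.49 ± 0.32, adjusted p = 0.0012). Tnfsf14 (LIGHT) and Hgf (hepatocyte growth factor) fell by 2.23 and 2.58 on the log2 scale (adjusted p = 0.02 and 0.0107). With the 0h library 2 removed, Tnf, Cxcl2, Cxcl3, Ccl6, Il15, Tnfsf14 and Hgf were still called and Il12a, Csf3 and Cxcl5 were not.

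In the interleukin-1 family, 5 of 23 tested genes rose and 1 fell, against 3.75% and 4.99% of all genes. The median log2 fold change of the family was 0.87. The cytokine gene itself fell: Il1b was 6429, 4431 and 4038 CPM at 0h and 1774, 1139 and 1103 CPM at 12 hours (log2 fold change -1.89 ± 0.35, adjusted p = 0.0188). Il1r2, which codes for the decoy receptor of IL-1, was 566, 396 and 358 CPM at 0h and 10610, 1847 and 6785 CPM at 12 hours (log2 fold change 3.87 ± 0.63, adjusted p = 0.0115). Irak3, a kinase-like inhibitor of signaling below IL-1 and Toll-like receptors, had 118, 76.8 and 96.2 CPM at 0h and 693, 611 and 1028 CPM at 12 hours (log2 fold change 3.0 ± 0.34, adjusted p = 0.00372). All 3 genes had time points apart, and Il1r2 was lowest at 12 hours in library 1b. Il1rap, the shared receptor subunit, rose (log2 fold change 1.92, adjusted p = 0.0308), whereas Il1rn, the gene of the receptor antagonist, was 564, 444 and 516 CPM at 0h and 2368, 619 and 1628 CPM at 12 hours and was not called (log2 fold change 1.6, adjusted p = 0.0681). Without the 0h library 2, only Irak3 of this list was called (adjusted p = 0.0241), and Il1r2 and Il1b had adjusted p = 0.0525 and 0.0622.

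Sensors of bacterial products changed in opposite directions. Of 30 tested genes of Toll-like receptors and endotoxin sensing, 7 rose and 3 fell (median log2 fold change 0.02). The shares of all genes were 3.75% and 4.99%. Cd14, the co-receptor that hands endotoxin to TLR4, was 206, 86.6 and 107 CPM at 0h and 4643, 1682 and 2187 CPM at 12 hours (log2 fold change 4.41 ± 0.55, adjusted p = 0.00521). Tlr2, which senses bacterial lipoproteins, had 181, 138 and 113 CPM at 0h and 406, 373 and 382 CPM at 12 hours (log2 fold change 1.43, adjusted p = 0.0217). The C-type lectins Clec4e (Mincle) and Clec5a rose too (log2 fold changes 1.29 and 1.26, adjusted p = 0.0313 and 0.0352). Clec7a codes for dectin-1, the receptor of fungal β-glucan. It fell from 1541, 1448 and 1358 CPM to 64.7, 13.1 and 31.97 CPM (log2 fold change -5.3 ± 0.61, adjusted p = 0.00384). Nod2, the sensor of muramyl dipeptide, fell from 53.1, 43.02 and 35.4 CPM to 3.53, 5.805 and 4.08 CPM, and Unc93b1, the chaperone of endosomal Toll-like receptors, from 617, 644 and 549.8 CPM to 155, 243 and 163 CPM (log2 fold changes -3.3 and -1.69, adjusted p = 0.00345 and 0.014). Myd88, an adaptor of Toll-like receptors, was 644, 485 and 513 CPM at 0h and 551, 666 and 596 CPM at 12 hours (log2 fold change 0.14, adjusted p = 0.763). Leaving out the 0h library 2, 4 were called higher and 2 lower. Cd14, Clec7a and Nod2 were among them, and Tlr2 had adjusted p = 0.0862.

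Inflammasome genes mostly fell among those called. Of 20 tested genes, 6 fell and 2 rose (median log2 fold change -0.63), and without the 0h library 2 the counts were 4 and 1. Among all genes, 4.99% fell and 3.75% rose, and 1.79% and 1.71% did so without that library. Nlrp3, the sensor of the best known inflammasome, was 155, 169.7 and 65.6 CPM at 0h and 20.7, 17.4 and 28.6 CPM at 12 hours (log2 fold change -2.55, adjusted p = 0.0116). Aim2, which senses cytosolic DNA, was 46.02, 40.9 and 53.2 CPM at 0h and 9.703, 3.09 and 4.97 CPM at 12 hours (log2 fold change -2.97, adjusted p = 0.00936). Gsdme, a pore-forming gasdermin, fell by 1.54 on the log2 scale (adjusted p = 0.0438). Pycard, the adaptor that links sensors to caspase-1, rose from 20.2, 13.9 and 36.2 CPM to 57.7, 168 and 102 CPM, and Casp4 (caspase-11) from 46.9, 46.9 and 47.5 CPM to 97.4, 117 and 220.0 CPM (adjusted p = 0.0334 and 0.0313). In these libraries both sensors fell and the adaptor rose.

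The acute-phase list held the largest share of genes that rose. Of its 19 tested genes, 10 rose and 1 fell, against 3.75% and 4.99% of all genes, and the median log2 fold change was 2.59. When the 0h library 2 was left out, 7 were called higher and none lower (edgeR). Saa3, the serum amyloid A gene of leukocytes (chr7:46711998-46715700), was 0.838, 0.56 and 4.19 CPM at 0h and 229.9, 93.5 and 318 CPM at 12 hours (log2 fold change 6.78 ± 0.90, adjusted p = 0.00573). Orm1, the gene of orosomucoid, had 5.07, 0.84 and 10.98 CPM at 0h and 869.7, 241 and 917 CPM at 12 hours (log2 fold change 6.88 ± 0.99, adjusted p = 0.00769). Both went from at most 10.98 CPM in any 0h library to at least 93.5 CPM in every library of 12 hours. Lcn2 codes for lipocalin 2, which binds bacterial siderophores, and was 1801, 546 and 1720 CPM at 0h and 15180, 16290 and 14880 CPM at 12 hours (log2 fold change 3.51 ± 0.50, adjusted p = 0.00743). Retnlg (resistin-like γ), Wfdc21, a WAP domain protein, and Chil1, a chitinase-like protein, rose with log2 fold changes of 1.91, 3.07 and 1.89 (adjusted p = 0.0209, 0.014 and 0.0313). Lyz2, the lysozyme gene of myeloid cells, fell from 11950, 4126 and 20350 CPM to 608, 2860 and 760.4 CPM (log2 fold change -3.11, adjusted p = 0.0462). It was highest in the 0h library 2, and without that library it was not called (adjusted p = 0.124).

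Transcripts of granule proteins were examined as signs of neutrophil age, since their levels are known to drop as neutrophils mature. Of 17 tested genes of specific granules, 4 rose and 1 fell (median log2 fold change 1.63), and of 21 genes of immature neutrophils and progenitors, 6 rose and 1 fell (median 1.91). By comparison, 3.75% of all genes rose and 4.99% fell. The lists share Lcn2, Olfm4, Mmp8 and other members. Mmp8, the collagenase of neutrophils, was 2869, 832 and 3234 CPM at 0h and 8127, 11580 and 9645 CPM at 12 hours (log2 fold change 2.08, adjusted p = 0.0431). Olfm4, olfactomedin 4, marks a subset of neutrophils and had 47.9, 5.51 and 66.8 CPM at 0h and 322, 279 and 279 CPM at 12 hours (log2 fold change 2.87, adjusted p = 0.0493). In both genes library 1b was the lowest at 0h. Other members that were not called were lower in library 1b at both times. Chil3, a chitinase-like lectin, was 1293, 24.4 and 2687 CPM at 0h and 17830, 4277 and 17040 CPM at 12 hours (log2 fold change 3.29 ± 1.27, adjusted p = 0.14). Ltf, the lactoferrin gene, was 6415, 54.8 and 5119 CPM at 0h and 19410, 3102 and 13250 CPM at 12 hours (log2 fold change 1.63 ± 1.24, adjusted p = 0.433). With libraries 1a and 2 only, 10 of the specific granule genes and 13 of the immature neutrophil genes were called higher. In the fit without the 0h library 2, the counts called higher were 1 and 3. Of the 8 tested azurophil granule genes, 1 rose (Cd63, a membrane protein of these granules, log2 fold change 1.69, adjusted p = 0.0281) and 1 fell (Fut4, a fucosyltransferase, -1.81, 0.0177). Fut4 was called without the 0h library 2 and Cd63 was not (adjusted p = 0.0332 and 0.0732).

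Growth factor receptors and signaling through STAT3 were considered next, since G-CSF drives emergency release from the marrow. Of 43 tested genes, 5 rose and 3 fell, against 3.75% and 4.99% of all genes (median log2 fold change 0.25). Csf3r, the G-CSF receptor, was 10300, 8022 and 5485 CPM at 0h and 1886, 927 and 1799 CPM at 12 hours (log2 fold change -2.37 ± 0.41, adjusted p = 0.0146). Csf1r, the receptor of macrophage colony-stimulating factor, fell from 644, 614 and 699 CPM to 95.7, 109 and 137 CPM (log2 fold change -2.52, adjusted p = 0.00348), with close values within each time point. Csf2rb2, a β subunit of the IL-3 receptor, rose from 30.9, 23.9 and 16.1 CPM to 75.95, 119.6 and 101 CPM (log2 fold change 2.06, adjusted p = 0.0115). Il4ra and Pim2, a cytokine receptor chain and a survival kinase, rose with log2 fold changes of 1.58 and 2.94 (adjusted p = 0.021 and 0.0335). In the fit without the 0h library 2, 3 genes of this list were called higher and 2 lower, against 1.71% and 1.79% of all genes. Il4ra was then not called (adjusted p = 0.0751). Among 24 transcription factors of granulopoiesis 2 rose and none fell, against the same 3.75% and 4.99% of all genes. Id2, an inhibitor of helix-loop-helix factors, was 72.9, 33.97 and 118 CPM at 0h and 1866, 829.9 and 1866 CPM at 12 hours (log2 fold change 4.34 ± 0.57, adjusted p = 0.00545), and Klf5, a zinc finger factor, rose by 2.4 (adjusted p = 0.0277). Id2 was called without the 0h library 2 and Klf5 was not (adjusted p = 0.0193 and 0.08). Spi1 (PU.1), the master factor of myeloid cells, was 979.6, 853 and 801 CPM at 0h and 1122, 1348 and 1023 CPM at 12 hours (log2 fold change 0.41, adjusted p = 0.364).

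Adhesion genes fell more often than they rose, as did all genes tested (4.99% lower and 3.75% higher). Of 20 tested genes of β2 integrins and their activation, 3 fell and 1 rose, and of 28 other adhesion molecules, 8 fell and 1 rose. The rises were near the share of all genes. Without the 0h library 2 the counts were 3 and 0, and 4 and 1, against 1.79% lower and 1.71% higher. Among the β2 integrin α subunits, Itgal (αL) was 920.2, 819 and 651 CPM at 0h and 152, 283 and 149.5 CPM at 12 hours (log2 fold change -2.03 ± 0.35, adjusted p = 0.0145). Itgax (αX), which is also on the dendritic cell marker list, was 185, 169.7 and 72.01 CPM at 0h and 17.3, 1.12 and 6.75 CPM at 12 hours (log2 fold change -4.07 ± 0.86, adjusted p = 0.0286). Transcripts of the targeted gene Itgad also fell (log2 fold change -2.32 ± 0.34, adjusted p = 0.0079), from the values given above. Itgam (αM) and Itgb2 (β2) were not called. Itgam was 357, 274 and 238 CPM at 0h and 440.0, 277 and 520.2 CPM at 12 hours (log2 fold change 0.51 ± 0.32, adjusted p = 0.343), and Itgb2 was 1824, 1357 and 1448 CPM at 0h and 1792, 1962 and 1693 CPM at 12 hours (log2 fold change 0.23 ± 0.27, adjusted p = 0.614). The 12-hour and 0h libraries overlapped for both genes. Rassf5, which activates integrins downstream of Rap1, rose (log2 fold change 1.24, adjusted p = 0.0493).

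Outside the β2 family, Itga4 and Itgb7 code for subunits of the integrin α4β7. Itga4 fell from 260.2, 221 and 242 CPM to 28.3, 11.98 and 28.3 CPM (log2 fold change -3.4 ± 0.39, adjusted p = 0.00391), and Itgb7 from 129, 121 and 162 CPM to 14.1, 11.3 and 12.2 CPM (log2 fold change -3.45 ± 0.28, adjusted p = 0.0012). Jaml, a junctional adhesion molecule of leukocytes, fell from 684, 679 and 404 CPM to 29.6, 12.7 and 16.2 CPM (log2 fold change -4.91, adjusted p = 0.00173). These 3 genes stayed far below their 0h range in every library of 12 hours. The gene that rose was Cd47, the signal that protects cells from phagocytosis, from 308, 232 and 342 CPM to 1419, 2400 and 1272 CPM (log2 fold change 2.53, adjusted p = 0.00721). Selplg, the ligand of P-selectin, was 2804, 2323 and 2224 CPM at 0h and 1218, 2392 and 1539 CPM at 12 hours and was not called.

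Receptors for chemoattractants changed in both directions. Of 25 tested genes, 4 rose, 5 fell and 16 were not called (median log2 fold change -1.28). The shares of all genes were 3.75% higher and 4.99% lower. The receptors of formyl peptides rose: Fpr1 from 441, 378 and 457 CPM to 1345, 1446 and 3503 CPM and Fpr2 from 109, 91.5 and 136 CPM to 594, 609 and 952 CPM (log2 fold changes 2.3 and 2.68, adjusted p = 0.0192 and 0.00484). Ltb4r1, the leukotriene B4 receptor, rose by 1.74 and P2ry2, a receptor of extracellular ATP, by 1.14 (adjusted p = 0.0325 and 0.048). Cxcr4, the receptor that holds neutrophils in the marrow, fell from 68.5, 125 and 47.9 CPM to 26.1, 9.64 and 23.1 CPM (log2 fold change -2.03, adjusted p = 0.0407). C5ar2, the second receptor of C5a, fell from 157, 219 and 99.8 CPM to 22.04, 37.6 and 26.7 CPM (log2 fold change -2.46, adjusted p = 0.00916). Cxcr1 and Cxcr3 fell too, from lower levels, and so did Ccr3, which is also a marker of eosinophils, whose markers were lower at 12 hours as given above. The main receptor for CXC chemokines on neutrophils, Cxcr2, was 2700, 2476 and 2325 CPM at 0h and 1369, 1316 and 1972 CPM at 12 hours and was not called (log2 fold change -0.69, adjusted p = 0.172). Ccr2 and Cx3cr1, monocyte receptors, were 39.9, 3.55 and 299 CPM and 16.1, 3.17 and 166 CPM at 0h, highest in library 2, and were not called. With the 0h library 2 removed, the counts were 1 higher (Fpr2) and 4 lower, against 1.71% and 1.79% of all genes. Fpr1, Ltb4r1, P2ry2 and Cxcr4 were then not called (adjusted p = 0.066, 0.0959, 0.112 and 0.0552).

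**Figure D3:**
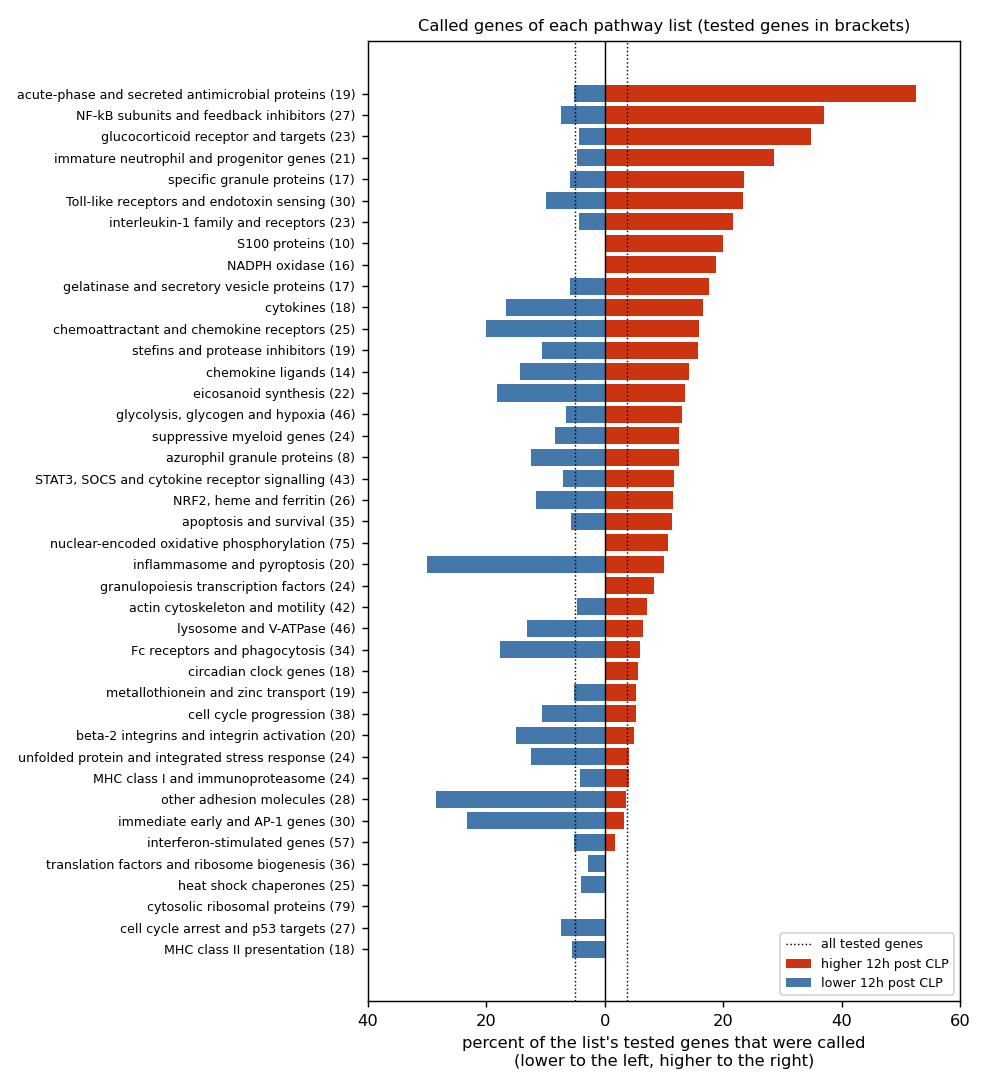
Percent of the tested genes of 41 pathway lists that were called higher (red, to the right) or lower (blue, to the left) 12 hours post CLP, with the number of tested genes in brackets and dotted lines at the percent of all genes called (3.75% and 4.99%). The acute-phase list has the longest red bar (10 of 19 genes) and the inflammasome list the longest blue bar (6 of 20), and lists share genes.

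Immediate early genes are switched on within minutes of a stimulus. Of 30 tested genes, 7 fell, 1 rose and 22 were not called (median log2 fold change -0.87), and without the 0h library 2 the counts were 3 lower and 0 higher. The shares of all genes were 4.99% lower and 3.75% higher, and 1.79% and 1.71% without that library. Fos was 3749, 3394 and 1925 CPM at 0h and 1198, 549.5 and 495 CPM at 12 hours (log2 fold change -2.02 ± 0.45, adjusted p = 0.0338). Dusp6, a phosphatase induced by ERK signaling, was 399, 396 and 267 CPM at 0h and 70.5, 46.5 and 34.6 CPM at 12 hours (log2 fold change -2.81, adjusted p = 0.00543). Btg1, an anti-proliferative gene, fell by 1.81 on the log2 scale (adjusted p = 0.0411). Junb and Dusp1 were not called (log2 fold changes -1.35 and -0.56, adjusted p = 0.0507 and 0.455). Batf, an AP-1 factor, rose from 60.8, 39.7 and 51.2 CPM to 197, 75.2 and 242 CPM (log2 fold change 1.76, adjusted p = 0.045). Dusp6 was called without the 0h library 2 (adjusted p = 0.0186), whereas Fos, Btg1 and Batf were not (adjusted p = 0.0602, 0.0998 and 0.113).

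Genes responsive to glucocorticoids rose more often than they fell, with 8 of 23 tested called higher and 1 lower. The shares of all genes were 3.75% and 4.99%, and the list's median log2 fold change was 0.49. Anxa1, Il1r2 and Nfkbia belong to this list as well. Tgm2, transglutaminase 2, was 39.2, 39.01 and 37.4 CPM at 0h and 208, 91.4 and 164 CPM at 12 hours (log2 fold change 2.0, adjusted p = 0.0139), and Per2, which is also a clock gene, was 41.9, 34.3 and 16.98 CPM at 0h and 158, 65.3 and 149.7 CPM at 12 hours (log2 fold change 2.0, adjusted p = 0.0354). Tsc22d3 (GILZ), a glucocorticoid target often used as a reporter, was 864, 1339 and 815 CPM at 0h and 1377, 765 and 952 CPM at 12 hours (log2 fold change 0.04, adjusted p = 0.958). The members did not move as a block. Without the 0h library 2, 2 were called higher and 1 lower.

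Of 46 tested genes of glycolysis, glycogen and hypoxia, 6 rose and 3 fell, against 3.75% and 4.99% of all genes (median log2 fold change -0.22). Gpi1, the glycolytic isomerase, was 779.5, 539.6 and 588 CPM at 0h and 2102, 2811 and 2182 CPM at 12 hours (log2 fold change 1.9, adjusted p = 0.0106). Ldha, which makes lactate, was 630.1, 379.9 and 608 CPM at 0h and 2338, 1487 and 1687 CPM at 12 hours (log2 fold change 1.77, adjusted p = 0.02). Hif1a, the hypoxia-inducible factor, rose by 1.92 and Gapdh by 1.5 (adjusted p = 0.0215 and 0.0387). Of the genes that fell, Bnip3 and Ankrd37 are hypoxia targets and Pdk1 restrains pyruvate oxidation (log2 fold changes -2.48, -3.71 and -2.63, adjusted p = 0.00545, 0.00688 and 0.0213). Without the 0h library 2, 1 of 48 tested genes of this list was called higher and 2 lower, against 1.71% and 1.79% of all genes. Gpi1, Ldha, Hif1a, Gapdh and Pdk1 were then not called (adjusted p = 0.0602, 0.071, 0.0598, 0.11 and 0.0665). Of 75 tested nuclear genes of oxidative phosphorylation, 8 rose and none fell (edgeR), with a median log2 fold change of 0.80. In 43 of them all 12-hour libraries lay above those of 0h, against 14.8% of all genes. Atp5g3, a subunit of ATP synthase, was 27.3, 22.96 and 43.9 CPM at 0h and 120.5, 149 and 126 CPM at 12 hours (log2 fold change 2.07, adjusted p = 0.0095). Leaving out the 0h library 2, 10 of this list were called higher and the median was 1.19. No gene of 79 cytosolic ribosomal proteins was called with edgeR (median -0.03).

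Genes of antimicrobial oxidants and of eicosanoids are known effectors of neutrophils. Of 16 tested NADPH oxidase genes and partners, 3 rose and none fell (edgeR), against 3.75% and 4.99% of all genes. Ncf4 (p40phox) rose from 414, 249 and 367 CPM to 915, 925 and 968 CPM, and Sod2, the mitochondrial superoxide dismutase, from 25.2, 22.96 and 43.1 CPM to 438, 319 and 512 CPM (log2 fold changes 1.45 and 3.79, adjusted p = 0.025 and 0.0024). Nos2, the inducible nitric oxide synthase, was 1.17, 2.61 and 0.227 CPM at 0h and 52.7, 185 and 88.9 CPM at 12 hours (log2 fold change 6.44 ± 0.90, adjusted p = 0.00693). The time points were far apart for Sod2 and Nos2, also without the 0h library 2 (adjusted p = 0.00929 and 0.0137). Of the oxidase list, 1 gene was called higher in that fit, and Ncf4 was not (adjusted p = 0.0872). Of 22 eicosanoid genes, 3 rose and 4 fell, and without the 0h library 2 the counts were 1 and 2. The shares of all genes were 3.75% and 4.99%, and 1.71% and 1.79% without that library. Among the falls, Alox12 was 89.7, 5.41 and 115 CPM at 0h and 4.755, 1.498 and 6.94 CPM at 12 hours. Its time points overlapped, and it was low in the 0h library 1b, as the platelet gene Pf4 was. Alox12 was not called without the 0h library 2. Alox5ap (FLAP), which presents arachidonic acid to 5-lipoxygenase, rose from 736, 624 and 707 CPM to 2515, 3379 and 2499 CPM (log2 fold change 2.02, adjusted p = 0.00753). Ptgs2 (cyclooxygenase 2) fell from 1336, 498 and 595 CPM to 76.7, 8.52 and 9.55 CPM (log2 fold change -4.68 ± 0.96, adjusted p = 0.027), though not without the 0h library 2 (adjusted p = 0.0529). Tbxas1, the thromboxane synthase, and Ptger2, a receptor of prostaglandin E2, fell by 2.20 and 1.73 on the log2 scale (adjusted p = 0.0178 and 0.0109).

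In the list of NRF2 targets, heme and ferritin, which includes genes of iron handling, 3 of 26 tested genes rose and 3 fell, against 3.75% and 4.99% of all genes. Slc40a1, which codes for ferroportin, the only known cellular iron exporter, was 2214, 1613 and 1713 CPM at 0h and 215, 386 and 272 CPM at 12 hours (log2 fold change -2.67 ± 0.34, adjusted p = 0.0054). Fth1, the heavy chain of ferritin, was 4104, 3165 and 3309 CPM at 0h and 15350, 9851 and 8859 CPM at 12 hours (log2 fold change 1.69, adjusted p = 0.0257), while Ftl1, the light chain, was 7361, 4314 and 5987 CPM at 0h and 3389, 3122 and 2500 CPM at 12 hours and was not called (log2 fold change -0.97, adjusted p = 0.0968). When the 0h library 2 was left out, none of this list was called higher (edgeR) and 1 lower, which was Slc40a1, and Fth1 was not called (adjusted p = 0.025 and 0.104). Of 19 tested genes of metallothioneins and zinc transport, Mt1 rose, as given above, and the zinc importer Slc39a4 fell from 44.1, 39.4 and 50.4 CPM to 10.7, 7.68 and 11.3 CPM (log2 fold change -2.17, adjusted p = 0.00753).

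Survival and stress genes gave a mixed picture. The counts of these lists are to be read against 3.75% of all genes called higher and 4.99% lower. Without the 0h library 2 these shares were 1.71% and 1.79%. Several counts were near them. Of 35 tested genes of apoptosis and survival, 4 rose and 2 fell. The anti-apoptotic genes Bcl2l1 (Bcl-xL), Cflar (c-FLIP) and Birc3 rose, with log2 fold changes of 1.53, 1.4 and 1.71 (adjusted p = 0.0249, 0.0215 and 0.0197). Casp6, an executioner caspase, rose from 5.904, 9.61 and 13.8 CPM to 102, 37.2 and 99.7 CPM (log2 fold change 3.03, adjusted p = 0.0116). The BH3-only genes Bid and Pmaip1 (Noxa) fell by 1.53 and 2.49 on the log2 scale (adjusted p = 0.0248 and 0.0227). Casp6 was still called without the 0h library 2 (adjusted p = 0.0254), whereas Bcl2l1, Cflar, Birc3, Bid and Pmaip1 were not (adjusted p = 0.0585, 0.0736, 0.0736, 0.0834 and 0.0529), and the counts of the list were 2 higher and 0 lower. Mcl1, on which neutrophil survival depends, was 1664, 2766 and 729.8 CPM at 0h and 650.3, 3524 and 402 CPM at 12 hours, with library 1b highest at both times (log2 fold change -0.17 ± 0.81, adjusted p = 0.912). In the unfolded protein and integrated stress response, 1 of 24 tested genes rose and 3 fell. Asns, asparagine synthetase, rose from 13.2, 11.6 and 12.8 CPM to 69.2, 38.2 and 55.5 CPM, and Ddit3 (CHOP) fell from 148, 76.7 and 101 CPM to 32.6, 12.9 and 17.3 CPM (log2 fold changes 2.11 and -2.37, adjusted p = 0.00882 and 0.0173). Chac1, a glutathione-degrading enzyme, fell by 4.55 on the log2 scale (adjusted p = 0.0142). When the 0h library 2 was left out, 1 gene of this list was called higher and 2 lower, and Ddit3 was not called (adjusted p = 0.0522). Among 38 genes of cell cycle progression, 2 rose and 4 fell, and Kif23, a kinesin of cytokinesis, fell from 202, 157 and 107 CPM to 14.97, 18.9 and 21.2 CPM (log2 fold change -3.08, adjusted p = 0.00345). Of the cell cycle genes, 0 were called higher and 1 lower (edgeR) without the 0h library 2.

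Among genes of Fc receptors, phagocytosis and lysosomes, more fell than the 4.99% of all genes, and rises were nearer the 3.75% of all genes. Of 34 tested genes of Fc receptors and phagocytosis, 2 rose and 6 fell, and of 46 lysosomal genes, 3 rose and 6 fell. The phagocytosis genes that fell include Cd209a, which is also on the dendritic cell marker list. Dock2, an activator of Rac, fell (log2 fold change -1.17, adjusted p = 0.0363). Fcgr3, a low-affinity IgG receptor, was 1332, 975 and 1283 CPM at 0h and 1040, 468 and 1117 CPM at 12 hours and was not called. Ctsa and Hexa, lysosomal enzymes, fell by 2.07 and 1.87 on the log2 scale (adjusted p = 0.0187 and 0.0451), while Atp6v0c and Atp6v1h, subunits of the proton pump, rose by log2 fold changes of 1.35 and 1.58 (adjusted p = 0.0234 and 0.0352). In the fit without the 0h library 2, the counts were 0 and 3 for phagocytosis and 1 and 0 for lysosomes. The shares of all genes were then 1.71% and 1.79%. Of 42 actin and motility genes 3 rose and 2 fell, near the share of all genes, with a median log2 fold change of 0.63. In 23 of them all 12-hour libraries lay above those of 0h, against 14.8% of all genes. Lsp1, a leukocyte actin-binding protein, fell from 2965, 2257 and 2339 CPM to 521, 928 and 553 CPM (log2 fold change -1.92, adjusted p = 0.016). Leaving out the 0h library 2, none of the actin and motility genes was called (edgeR), and Lsp1 had adjusted p = 0.0602.

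Few interferon-stimulated and antigen presentation genes were called, against 3.75% and 4.99% of all genes. Of 57 tested interferon-stimulated genes, 1 rose and 3 fell (median log2 fold change -0.16). Ifitm2, an antiviral membrane protein, rose from 868, 754 and 679 CPM to 3545, 3425 and 3278 CPM (log2 fold change 2.15, adjusted p = 0.00545), and its relative Ifitm6, of the acute-phase list, from 308, 82.2 and 375 CPM to 3675, 3153 and 3892 CPM (log2 fold change 3.81, adjusted p = 0.00844). Oasl2, an interferon-induced antiviral gene, fell from 538, 409 and 371 CPM to 43.5, 99.6 and 154 CPM (log2 fold change -2.15, adjusted p = 0.0295). Without the 0h library 2, 1 interferon-stimulated gene was called higher and 0 lower (edgeR), and Oasl2 had adjusted p = 0.0725. Of 24 genes of MHC class I and the immunoproteasome, 1 rose and 1 fell, and the counts without that library were 1 and 0. MHC class II is a product of B cells, monocytes and dendritic cells, and its 18 tested genes had a median log2 fold change of -2.43, against -0.14 for all genes, with 1 called lower. Without the 0h library 2 that median was -0.61 and none was called with edgeR. Cd74, the invariant chain, was 164, 51.4 and 1166 CPM at 0h and 195, 14.5 and 51.96 CPM at 12 hours (log2 fold change -2.4, adjusted p = 0.237). Its highest value was in the 0h library 2, the library with the highest B cell and dendritic cell markers.

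The markers of other cells were tested in the same fit, and most of those called were lower at 12 hours. Among all genes, 4.99% were called lower and 3.75% higher, and 1.79% and 1.71% without the 0h library 2. Of 26 tested B cell markers 9 fell, of 23 T and NK cell markers 6 fell, of 16 dendritic cell markers 6 fell and of 26 monocyte and macrophage markers 5 fell, with none called higher (edgeR). With the 0h library 2 removed, these counts were 2, 0, 1 and 2. Of 20 platelet markers 8 fell and 1 rose, and without that library 3 fell and none rose. The marker that rose was Thbs1, the gene of thrombospondin 1, which was 291, 35.6 and 177 CPM at 0h and 3706, 562 and 2056 CPM at 12 hours (log2 fold change 3.65, adjusted p = 0.0419). Of 9 tested eosinophil, basophil and mast cell markers 3 fell and 1 rose (Kit, the receptor of stem cell factor), and 2 fell without that library. Of 15 tested erythroid markers 1 fell. With libraries 1a and 2 only, 16 of the 20 platelet markers were called lower. Of 23 tested immunoglobulin segments 13 were called, and these 13 were lower. Among the genes named above, Tnfaip2, Tnip2, Il1rap, Clec4e, Clec5a, Unc93b1, Casp4, Gsdme, Chil1, Retnlg, Mmp8, Olfm4, Rassf5, Per2, Tgm2, Atp6v0c, Atp6v1h, Ctsa, Hexa, Dock2 and Thbs1 also lost their call without the 0h library 2 (adjusted p = 0.0515 to 0.151). For 45 of the 707 genes called lower, the fall was smaller by over 1 on the log2 scale without the 0h library 2, and this held for none of the 531 rises. With the marker genes of other cells and the immunoglobulin segments removed before normalization, 526 genes were called higher and 688 lower.

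Blood neutrophils labelled WT were compared at the same times, with no library shared between the genotypes. Itgad went against the labels in these libraries, as given above, so each direction between genotypes is one between labels. In the libraries labelled WT, 1134 of 14625 tested genes (7.75%) were called higher and 841 (5.75%) lower. Of the 531 genes higher in blood labelled αD KO, 398 (75.0%) were also called higher in WT, and of the 676 genes lower in blood labelled αD KO and tested in WT, 431 (63.8%) were also called lower. None was called in opposite directions. Over the 13386 genes tested in both, the log2 fold changes correlated across genes with Pearson's r = 0.802, a description given without a test since genes are not independent replicates. Of 1207 DEGs of blood labelled αD KO tested in WT, 1203 had the same sign, against 81.3% of all genes tested in both. The test of the difference itself, the genotype by time interaction over 19792 genes, called 0 genes (0%) with edgeR, 232 had an unadjusted p under 0.05, and the DESeq2 Wald test called 1.

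The values of several groups are given side by side for the genotypes, and no difference between groups was tested. Counts called higher are to be read against 3.75% of all genes in blood labelled αD KO and 7.75% in WT. NF-κB feedback genes were called higher in 10 of 27 cases in blood labelled αD KO and in 3 in WT, with medians of 0.83 and 0.62, and with a log2 fold change of 2.79 against 1.52 for Nfkbia (interaction adjusted p = 1, edgeR) and of 2.61 against 1.54 for Tnfaip3 (1). Oxidative phosphorylation genes were called higher in 8 cases in blood labelled αD KO and 20 in WT, with medians of 0.80 and 0.81. Specific granule genes had medians of 1.63 in blood labelled αD KO and 3.11 in WT, with 4 and 7 called higher. Mt1 rose by 7.37 in blood labelled αD KO and 4.06 in WT (interaction adjusted p = 1), and Itgam changed by 0.51 and 1.81 (1). An interaction that was not called does not show that the genotypes responded alike.

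**Figure D4:**
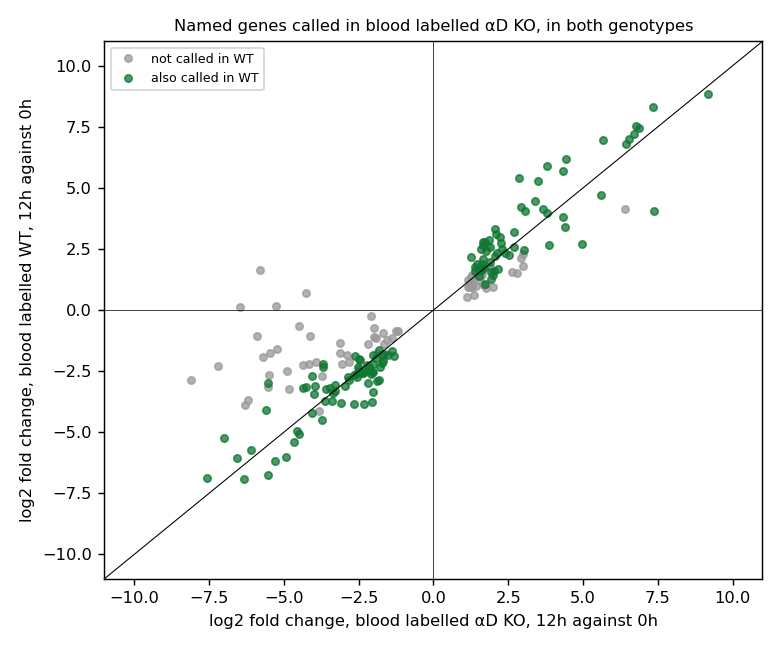
Log2 fold change 12 hours post CLP against 0h in blood labelled αD KO (x axis) and WT (y axis) for 201 named genes called in blood labelled αD KO, green where WT was called in the same direction (132 genes) and grey where not, with the line of equal change. Of the 201 genes, 197 have the same sign in both genotypes.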

How the data were processed

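Neutrophils were sorted from blood, RNA was purified with a column kit, full-length cDNA was amplified, and libraries were made by tagmentation. Per the labels, reads were trimmed with Trimmomatic 0.36 and mapped with STAR 2.5.2b, with GRCm38 (mm10) listed as the build in the submitters' processing notes. Uniquely mapped reads in exons were counted by the authors, who deposited raw whole-number counts for each gene, and the strand setting of the counting is not given in the sources used here. For 44823 of the 49315 genes the deposited position matched GENCODE's GRCm38 annotation, and 48970 genes had a symbol there.

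The 6 count files were analysed in R 4.3.3 with edgeR 4.0.16 (TMM factors, filterByExpr, two-sided quasi-likelihood F test). Alternatives used limma 3.58.1 and DESeq2 1.42.0. DEGs had p under 0.05 after Benjamini-Hochberg adjustment and a log2 fold change beyond 1 in either direction, and standard errors belong to edgeR's fold changes. The genotype by time interaction was fitted on the 12 blood libraries. Promoters came from RefSeq tables on GRCm38.p6, 1 window a gene.

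Which members to describe, the 49 gene lists and the tests were chosen with earlier results of these data known, although the labels alone define the members. The named genes are the β2 integrins (Itgad, Itgal, Itgam, Itgax, Itgb2), per list up to 4 called higher, 4 called lower and 3 not called with the highest mean CPM, the 10 largest rises and falls without overlap whose mean CPM in the lower group was above that of 3 counts over the group, the 10 called genes of highest mean CPM in each direction, genes called by the interaction, and the cell type markers. Flna was named after its values were seen. Libraries of the same number deviated from their group means alike in part. The correlations were 0.0485 for 1a, 0.375 for 1b and 0.27 for 2. The main tests use no block. Other tissues and experiments of the study were not analysed here. A few genes that the rule names are not reported here.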

Additional observations from a re-analysis of the deposited data

Results flagged for a closer look

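The change over time differed between blood labelled αD KO and WT for 1 gene in the DESeq2 Wald test of the interaction. Flna, which codes for the actin crosslinker filamin A, had 1486, 842 and 1005 CPM at 0h and 2106, 1814 and 2330 CPM at 12 hours in blood labelled αD KO, in the order 1a, 1b and 2 and on the scale of all 12 blood libraries. In blood labelled WT it had 822, 561 and 1146 CPM at 0h and 3383, 3875 and 3414 CPM at 12 hours. The difference between the changes, αD KO minus WT, was -1.23 on the log2 scale (DESeq2 adjusted p = 0.0216). With edgeR the difference was -1.17 and its unadjusted p was 0.0572, so it was not called. Within each genotype, Flna was called higher in WT (log2 fold change 2.02, edgeR adjusted p = 0.0136) and was not called in blood labelled αD KO (0.71, adjusted p = 0.138). Since Itgad went against the labels, the direction is one between labels.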

How the results depend on the processing

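The number of DEGs moved widely with the test and with the libraries in the fit, which also changed the number of genes tested. Against 1238 DEGs (531 higher and 707 lower) with edgeR on the 6 libraries, the DESeq2 Wald test called 2200 (1001 and 1199) and voom with quality weights 3262 (1476 and 1786). With all 8 groups of the series in the fit, edgeR called 64 (12 and 52), with the 4 blood groups 681 (354 and 327), and with the files of sample 1 summed 635 (347 and 288). Leaving out 1 library gave 74 to 1414 DEGs, with 23 to 715 higher and 51 to 699 lower. The lowest counts came without the 0h library 1a (74), the 12-hour library 2 (167) and the 12-hour library 1a (260), and those without the 0h libraries 2 and 1b were 571 and 682. The cause of these differences was not tested. RLE normalization, either other filter on low counts, libraries 1a and 2 only, the adjusted p alone and the removal of marker genes kept the total within 1.5 times. The interaction called 0 genes in every alternative run except the DESeq2 Wald test (1).

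The library number as a replicate block gave 1520 DEGs (660 higher and 860 lower), of which 1119 were among the 1238. Deviations from the group means correlated by 0.0485, 0.375 and 0.27 for libraries 1a, 1b and 2. Libraries 1b and 2 thus correlated best with their own number, and 1b against 2 gave -0.311 and -0.313. The 12-hour library 1a correlated best with the 0h library 2 (0.184). The numbers were not taken as pairs in the main tests, so an effect of library number is not removed there.

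No named DEG changed sign in any alternative in which it was tested. For genes whose time points do not overlap, this was all but fixed in advance in fits on these libraries. Of 206 named DEGs, 195 were called with RLE normalization and 10 with all groups in the fit. Depth limits genes of a few counts, since 3 counts over a time point correspond to 0.0491 CPM at 0h and 0.0715 CPM at 12 hours.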
